A study of Mus musculus with 12 samples.

Results

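Polycomb repressive complex 2 (PRC2) was followed through 10 of its genes, which is 10 of the 18193 genes measured on the arrays. The genes were the catalytic subunits Ezh2 and Ezh1, the core subunits Suz12 and Eed, the histone-binding subunits Rbbp4 and Rbbp7, and the accessory subunits Jarid2, Aebp2, Mtf2 and Phf19. They were chosen by name, with earlier results of these data known, so counts among them stand beside all genes as a description. Only probe sets annotated to one gene were used. The brightest of a gene's probe sets, by its mean on the 12 arrays, gave the gene's log2 intensity, and the remaining ones are given beside it. The 10 genes had 35 such probe sets, of which 30 reached the background level in at least one group. This level, 4.86, was set by 86 probe sets for olfactory, vomeronasal and taste receptors, 95% of which had a mean below it. All 10 genes were above it in all 4 groups.

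PRC2 is the enzyme complex that methylates lysine K27 of histone H3, a mark of silenced developmental genes. Ezh2 or its paralog Ezh1 carries the methyltransferase domain, which needs Suz12 and Eed to be active, and Eed also binds the finished mark. Rbbp4 and Rbbp7 are close paralogs that bind histones and also serve in other chromatin complexes. The accessory subunits steer the complex to chromatin in alternative assemblies, one holding Jarid2 and Aebp2 and another holding a Polycomb-like protein such as Mtf2 or Phf19. Ezh2 is abundant in dividing cells and Ezh1 in resting ones, and Ezh2 is a well-known gene in melanoma, where it is frequently overexpressed.

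The cells were C790, an Nras-mutant mouse melanoma line. All of them carried a doxycycline-inducible vector for Oct4, Klf4 and Sox2 with blasticidin resistance, together with a constitutive transactivator vector marked by mCherry. The +dox cells received doxycycline and were partially reprogrammed, while −dox cells held both vectors without doxycycline and were the controls, and both were taken at day 20. Each was treated for 72 h with DMSO or with trametinib, a MEK inhibitor, which gave 4 groups of 3 arrays: −dox DMSO, −dox trametinib, +dox DMSO and +dox trametinib. A single cell line was used, and the labels do not say whether the 3 arrays of a group came from separate cultures, so the p-values measure the spread between these arrays, which may be technical, and their number limits the precision. RNA came from bulk cultures, in which fewer cells of a type and less RNA per cell cannot be told apart.

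The array of −dox DMSO replicate 1 stood apart from the others. Its median absolute difference from its fellow replicates was 0.25 to 0.27 on the log2 scale, against 0.10 to 0.19 for the remaining replicate pairs, and leaving it out changed no call among the 10 genes. Trametinib lowered 15 of 16 measured ERK output genes in each cell state. Of 13 pluripotency genes 7 were above the background level in some group. Under DMSO 1 of the 13 differed between +dox and −dox cells, where 2.87% of all genes were higher and 3.28% lower. This was Pou5f1 (Oct4), at 5.45 against 4.63 (limma, adjusted p = 0.0155). Without doxycycline it was also at 5.50 in −dox trametinib (limma, adjusted p = 0.00325 against −dox DMSO). Of the other vector genes, Sox2 was at 5.87 against 7.40 (adjusted p = 0.0909) and Klf4 at 9.30 against 9.45 (adjusted p = 0.798), and whether their probe sets read the vector is not known here. Of 14 melanocyte markers 3 were above the background level, namely Mitf, Pmel and Sox10, whereas the pigment genes Tyr, Tyrp1, Dct and Mlana were under it in all groups. Of the markers of other cell types, 7 of 11 leukocyte, 5 of 9 fibroblast and 5 of 7 keratinocyte genes were above it in some group, with the pan-leukocyte gene Ptprc under it. The mean log2 level of the 9 fibroblast markers was 6.27 to 6.36 in −dox DMSO, 6.79 to 6.97 in −dox trametinib, 5.12 to 5.39 in +dox DMSO and 5.89 to 6.02 in +dox trametinib. Of these 9, 4 rose and 1 fell with trametinib in −dox cells and 3 rose in +dox cells. The mean of the 11 leukocyte markers was 4.34 to 4.68, 4.59 to 4.69, 4.70 to 5.17 and 5.06 to 5.21 in the same order of groups, and that of the 7 keratinocyte markers 4.51 to 4.60, 4.38 to 4.50, 4.45 to 4.69 and 4.48 to 4.70. Among them Cd3g, a T cell receptor subunit, was at 4.83 in +dox DMSO and 9.01 in +dox trametinib (adjusted p = 6.68e-07), and under the background level in all groups but the last, and Itgam went from 5.60 to 3.72 in the same +dox groups (adjusted p = 0.0131). The other T cell genes of the list did not pass in +dox cells. Their changes with trametinib were 0.12 for Cd3e, 0.25 for Cd4 and 0.34 for Cd8a (limma, adjusted p = 0.487, 0.0671 and 0.173). The keratin gene Krt19 fell from 6.09 to 4.89 in −dox and from 6.37 to 4.51 in +dox cells (adjusted p = 0.0103 and 6.37e-04), and the cadherin gene Cdh1 went from 3.34 to 4.99 in +dox cells (adjusted p = 7.18e-04). The part of such cells in the changes below was not tested.

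Trametinib lowered several PRC2 genes in both cell states and raised a single one. In −dox cells Ezh2, Rbbp4, Rbbp7 and Phf19 fell, none of the 10 genes rose (nor had any a higher value at an unadjusted p under 0.05), and 6 stayed short of the threshold. In +dox cells Ezh2, Eed, Rbbp4, Rbbp7 and Phf19 fell, Jarid2 rose and 4 stayed short of it. With a block for the replicate number Suz12 passed in −dox cells too, and Suz12 and Mtf2 in +dox cells, which made 5 and 8 genes. Without −dox DMSO replicate 2 or 3 or −dox trametinib replicate 2, the count in −dox cells was 2, and it was 4 in +dox cells without +dox DMSO replicate 2 or +dox trametinib replicate 3. Doxycycline moved none of the 10 past the test, under DMSO or under trametinib, although Ezh2 passed under trametinib with that block. The test was limma, with adjusted p-values over all 18193 genes and a threshold of 0.05. The 4 falls among 10 genes in −dox cells stand against 10.8% of all genes that fell there, and no gene rose where 11.6% of all genes did. In +dox cells the 5 falls stand against 12.5% of all genes and the single rise against 13.8%. These shares include genes under the background level, whereas all 10 genes were above it. Of 12485 genes kept by a filter at that level, 1994 fell and 2102 rose in −dox cells. In +dox cells 2313 of them fell and 2508 rose. With this filter Suz12 also passed in −dox cells, which made 5 falls there. Counts in +dox cells stayed at 5 falls and 1 rise. The median log2 change of the 10 genes was −0.31 in −dox and −0.40 in +dox cells, beside 0.06 and 0.02 over all genes. Between the groups, the arrays did not overlap for 5 genes that were lower in −dox cells, where 15.2% of all genes were lower in this way, and for 5 that were lower in +dox cells, where 18.6% were. The arrays of Jarid2 were higher without overlap in +dox cells, as were those of 22.1% of all genes.

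**Figure D1:**
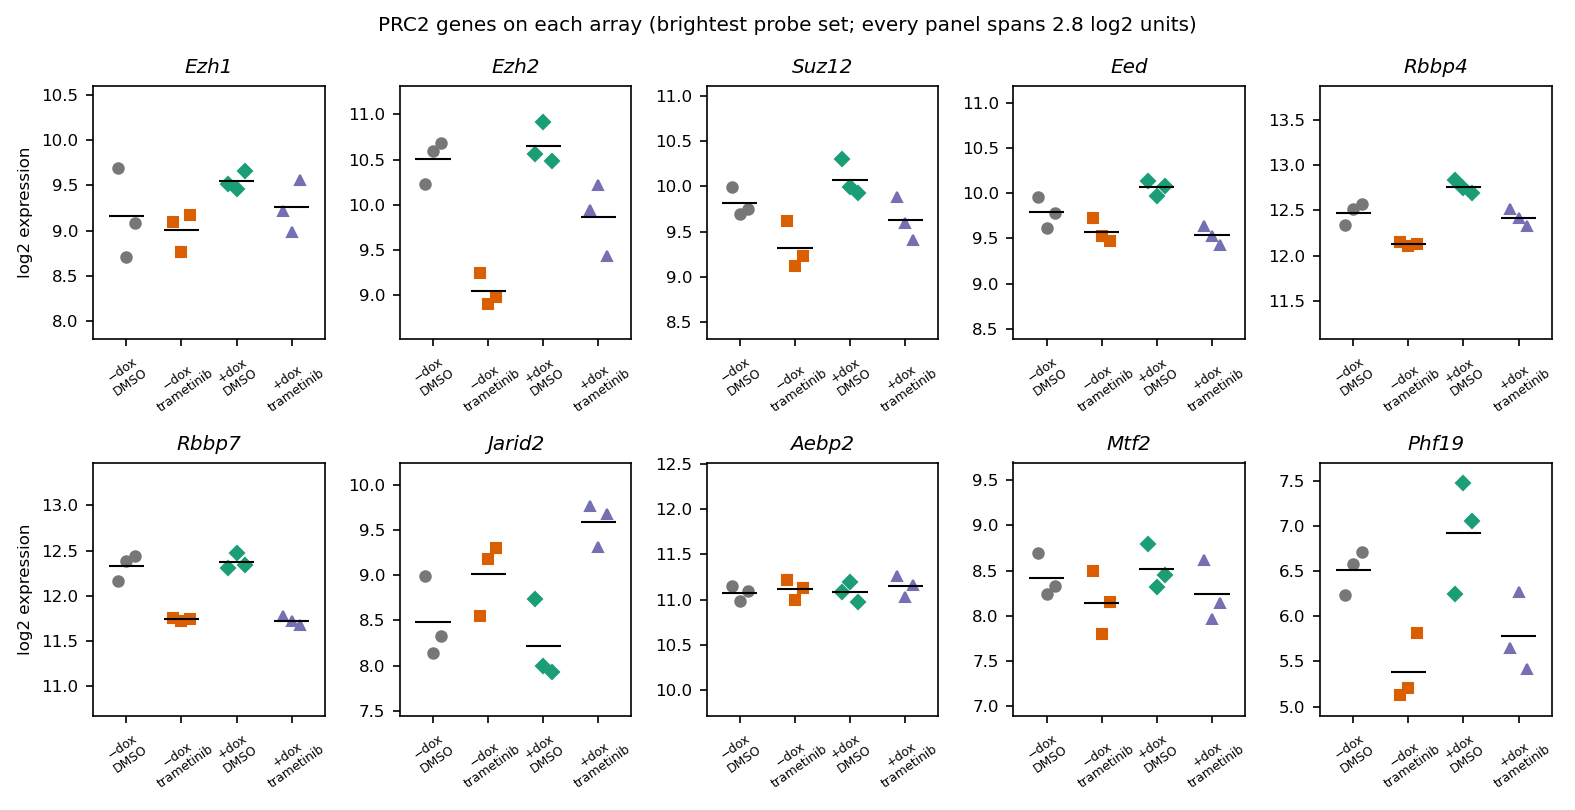
Log2 expression (y axis) of the 10 PRC2 genes on each of the 12 arrays, in the 4 groups (x axis), with a point per array, a bar at each group mean of 3 arrays and the same span in every panel. The trametinib arrays of Ezh2 and Rbbp7 lie below the DMSO arrays in both cell states, and those of Jarid2 lie above them in +dox cells.

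Ezh2, the main catalytic subunit, had a single probe set and lies at chr6:47530274-47595270 (GRCm38.p6). The −dox DMSO arrays read 10.23, 10.60 and 10.69 (log2) and the −dox trametinib arrays 9.25, 8.91 and 8.98. The +dox DMSO arrays read 10.56, 10.92 and 10.49 and the +dox trametinib arrays 9.94, 10.22 and 9.43. Every trametinib array was thus below every DMSO array, and the +dox trametinib arrays lay between, the highest of them at 10.22 beside the lowest DMSO array at 10.23. Ezh2 fell by 1.46 ± 0.20 (SE, 3 against 3 arrays; limma, adjusted p = 5.59e-04) in −dox cells, which is 2.75-fold lower. Among +dox cells it fell by 0.79 ± 0.20 (adjusted p = 0.0136), which is 1.73-fold lower. Without +dox DMSO replicate 2 the change in +dox cells was −0.66, with an adjusted p of 0.0596, beside 0.00649 to 0.0596 over the arrays left out in turn.

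Of the groups, +dox DMSO was highest for Ezh2 (10.66 ± 0.23, SD, n = 3), followed by −dox DMSO (10.51 ± 0.24), whose arrays overlapped with it. Next came +dox trametinib (9.86 ± 0.40) and last −dox trametinib (9.05 ± 0.18), which overlapped with no other group. Under trametinib, +dox cells were higher than −dox cells in Ezh2 by 0.82 ± 0.20, a difference that did not pass the test (limma, adjusted p = 0.0566; 95% confidence interval 0.37 to 1.27). It passed with a block for the replicate number (adjusted p = 0.0473), and the adjusted p was 0.0116 to 0.108 over all alternatives other than leaving out an array and 0.0173 to 0.204 over the arrays left out in turn.

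The Ezh2 level moved with a list of 33 cell cycle and E2F genes from array to array. Ezh2 is not a member of that list. The mean log2 level of the list was 9.30, 9.66 and 9.65 on the −dox DMSO arrays and 8.24, 7.77 and 7.65 on the −dox trametinib arrays. On the +dox arrays it was 9.49, 10.08 and 9.68 with DMSO and 8.54, 9.17 and 7.98 with trametinib. The +dox trametinib array with the highest list mean, replicate 2, was also the one with the highest Ezh2, and replicate 3 was lowest in both. As a description over the 12 arrays, which share their groups, the deviations of Ezh2 from its group means had a Pearson r of 0.94 with those of the list mean. The same r was 0.58 for Phf19, 0.52 for Rbbp7, 0.31 for Rbbp4, 0.16 for Suz12, 0.059 for Eed, −0.054 for Aebp2, −0.21 for Mtf2, −0.56 for Ezh1 and −0.70 for Jarid2. Of the list itself, 26 of 33 genes fell in −dox and 21 of 33 in +dox cells, with median changes of −1.88 and −1.52, beside 10.8% and 12.5% of all genes that fell. In the list 1 gene rose in −dox cells (Rb1) and 2 in +dox cells (Rb1 and Rbl2), beside 11.6% and 13.8% of all genes. The part of the share of dividing cells in the PRC2 changes was not tested. Over the 12 arrays, the genes with levels most like that of Ezh2, out of 12004 candidates above the background level, were the cohesin protectors Sgo1 and Sgo2a, the cyclin gene Ccna2, the DNA polymerase gene Pola1 and the condensin gene Ncapg2, each with r = 0.99.

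**Figure D2:**
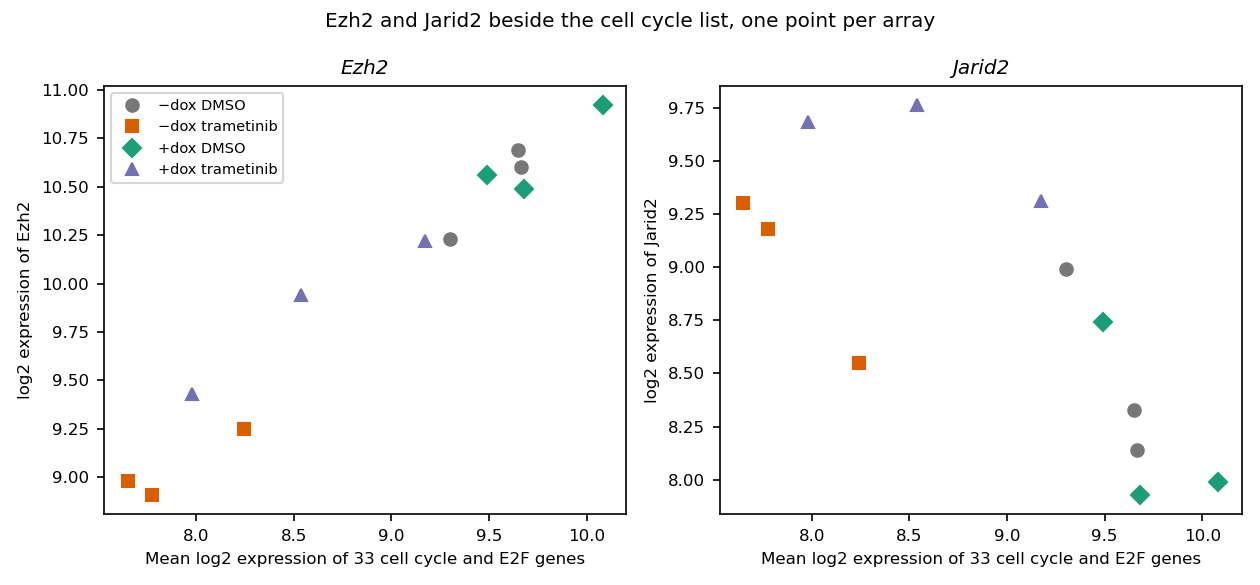
Log2 expression of Ezh2 (left) and Jarid2 (right) on the y axis against the mean log2 expression of 33 cell cycle and E2F genes on the x axis, one point per array, with the 4 groups marked by colour and shape. In +dox trametinib Ezh2 ran from 9.43 to 10.22 while the list mean ran from 7.98 to 9.17, in the same order of arrays, whereas in each other group 2 arrays were in the opposite order for Ezh2.

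E2F factors, which switch on genes of DNA replication, bind a short motif, and the promoters of 3 of the 10 genes held it, so these are shown. The promoter was taken as the 300 bases from 250 before to 50 after a gene's RefSeq start (GRCm38.p6), in 14 windows for the 10 genes, and all 10 genes matched by symbol. The letters searched were TTTCCCGC, TTTCGCGC, TTTGCCGC and TTTGGCGC on both strands, and capitals mark the match. Over all genes with a promoter window, 704 of 27025 (2.6%) held one of these forms, as did 13 of 29 (44.8%) of the cell cycle list. A match describes the letters and not a binding site. The windows, on the strand of the gene and from its 5′ end, are those of Ezh2 (chr6:47594981-47595280, minus strand), Suz12 (chr11:79992856-79993155, plus strand) and Phf19 (chr2:34913927-34914226, minus strand):
Ezh2: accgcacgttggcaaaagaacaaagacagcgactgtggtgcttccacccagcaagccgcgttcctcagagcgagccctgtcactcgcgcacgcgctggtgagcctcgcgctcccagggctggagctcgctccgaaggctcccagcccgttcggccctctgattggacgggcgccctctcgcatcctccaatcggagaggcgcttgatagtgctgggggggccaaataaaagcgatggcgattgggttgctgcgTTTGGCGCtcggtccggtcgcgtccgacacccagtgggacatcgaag
Suz12: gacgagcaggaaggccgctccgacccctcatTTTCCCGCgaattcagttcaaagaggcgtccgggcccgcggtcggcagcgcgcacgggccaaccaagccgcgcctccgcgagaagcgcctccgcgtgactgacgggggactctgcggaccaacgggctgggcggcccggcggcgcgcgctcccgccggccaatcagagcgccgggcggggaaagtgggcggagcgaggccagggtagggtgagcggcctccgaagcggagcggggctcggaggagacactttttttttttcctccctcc
Phf19: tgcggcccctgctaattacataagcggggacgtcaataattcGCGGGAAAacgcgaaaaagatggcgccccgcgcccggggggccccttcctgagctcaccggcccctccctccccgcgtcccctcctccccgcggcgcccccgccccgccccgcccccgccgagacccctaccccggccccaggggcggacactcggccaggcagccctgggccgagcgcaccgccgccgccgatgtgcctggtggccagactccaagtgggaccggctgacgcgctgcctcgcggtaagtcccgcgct
The match began at base +4 from the start in Ezh2, at −219 in Suz12 and, on the opposite strand, at −208 in Phf19. The Ezh2 match is TTTGGCGC and lies just inside the transcript of this start. Suz12 holds TTTCCCGC and Phf19 its reverse complement, GCGGGAAA. Base composition differed between the windows, which were 64.3% GC in Ezh2, 71.0% in Suz12 and 74.3% in Phf19, against a median of 52.7% over all windows. Annotated starts of Ezh2 and Phf19 also lie further upstream, since the genes extend to chr6 position 47595270 and chr2 position 34914353, and those starts had no window here.

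Ezh1, the paralog of Ezh2 with the weaker enzyme activity, passed the test in none of the 5 comparisons. With array weights it passed for +dox against −dox cells under DMSO (0.54, adjusted p = 0.0256; 0.38 and 0.397 without weights). Those weights favoured −dox DMSO replicate 3 (6.98, beside 1.78 for the next array). The arrays of Ezh1 ran from 8.71 to 9.69 in −dox DMSO, 8.76 to 9.17 in −dox trametinib, 9.46 to 9.66 in +dox DMSO and 8.99 to 9.56 in +dox trametinib. The widest group was −dox DMSO, because its replicate 1 was at 9.69. Trametinib gave a log2 change of −0.15 (95% confidence interval −0.65 to 0.34) in −dox and −0.29 (−0.79 to 0.21) in +dox cells, against −1.46 and −0.79 for Ezh2. Without −dox DMSO replicate 1 the first of these was 0.11. The intervals of Ezh1 and Ezh2 did not overlap in −dox cells, where that of Ezh2 was −1.91 to −1.01, but overlapped in +dox cells, where it was −1.24 to −0.34. The second Ezh1 probe set above the background level gave −0.05 and −0.51, and 0.67 for +dox against −dox cells under DMSO (adjusted p = 0.0979 over all probe sets).

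Suz12, the scaffold subunit, lies at chr11:79993106-80034123. Among −dox cells its log2 level was 9.99, 9.70 and 9.75 with DMSO and 9.62, 9.12 and 9.23 with trametinib. Among +dox cells it was 10.30, 9.99 and 9.93 with DMSO and 9.88, 9.59 and 9.41 with trametinib. The trametinib arrays were below the DMSO arrays in both states, but only narrowly, and replicate 1 was the highest of each group. The change of −0.49 ± 0.17 in −dox cells did not pass the test (limma, adjusted p = 0.0571), nor did that of −0.45 ± 0.17 in +dox cells (adjusted p = 0.0732). With the replicate number as a block, the change in +dox cells passed (adjusted p = 0.00496), beside 0.00496 to 0.109 over the alternatives other than leaving out an array and 0.0430 to 0.238 over the arrays left out in turn. Of the 6 Suz12 probe sets 5 had negative changes in both states and 1 had positive ones, of 0.04 and 0.23. Tested one by one, 1 of the 6, the second dimmest, fell in +dox cells (−0.51, adjusted p = 0.0267).

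Eed, the subunit that reads the mark, lies at chr7:89954654-89980976. On the log2 scale it was at 10.14, 9.97 and 10.08 in +dox DMSO and 9.64, 9.53 and 9.43 in +dox trametinib. These groups did not overlap, and the gap between them was wider than either group. Eed fell by 0.53 ± 0.11 in +dox cells (limma, adjusted p = 0.0049). The −dox arrays were at 9.96, 9.62 and 9.78 with DMSO and 9.72, 9.53 and 9.47 with trametinib, which overlapped, and the change of −0.21 ± 0.11 did not pass (adjusted p = 0.218). The difference between the states in this change was −0.32 (95% confidence interval −0.67 to 0.04, adjusted p = 0.487), so a different response of Eed was not shown. The other Eed probe set was under the background level.

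Rbbp7, one of the histone-binding subunits, lies at chrX:162760372-162779090. The log2 level of −dox cells was 12.17, 12.39 and 12.44 with DMSO and 11.76, 11.72 and 11.74 with trametinib. That of +dox cells was 12.31, 12.47 and 12.34 with DMSO and 11.78, 11.72 and 11.68 with trametinib. All 6 trametinib arrays lay between 11.68 and 11.78, below all 6 DMSO arrays. Rbbp7 fell by 0.59 ± 0.09 in −dox cells (limma, adjusted p = 0.00112), and its +dox level fell by 0.65 ± 0.09 (adjusted p = 4.92e-04), which is 1.51-fold and 1.57-fold lower. Its second probe set fell as well (−0.56 and −0.68). The fall passed the test under every alternative run, with adjusted p-values up to 0.0139 in −dox and 0.00294 in +dox cells.

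Rbbp4, its paralog, lies at chr4:129307100-129335370. Log2 levels were 12.34, 12.51 and 12.57 with DMSO and 12.15, 12.11 and 12.13 with trametinib in −dox cells. They were 12.84, 12.75 and 12.69 with DMSO and 12.51, 12.41 and 12.33 with trametinib in +dox cells. The 2 groups overlapped in neither state, and the +dox arrays were above the −dox arrays under each treatment. Rbbp4 fell by 0.34 ± 0.09 in both states (limma, adjusted p = 0.021 for −dox and 0.0172 for +dox), which is 1.27-fold lower. In −dox cells the call was lost with each array centred on its median (−0.21, adjusted p = 0.0996), with only the 6 arrays compared (adjusted p = 0.068) and without −dox DMSO replicate 2 or 3 or −dox trametinib replicate 2 or 3 (0.065, 0.081, 0.0621 and 0.0598). The call in +dox cells was lost without +dox DMSO replicate 1 (0.0594) or +dox trametinib replicate 3 (0.0668). The range over the alternatives other than leaving out an array was 2.85e-04 to 0.0996 in −dox and 0.00205 to 0.037 in +dox cells.

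All 4 Rbbp4 probe sets had negative changes in both states. Tested one by one, 1 of them fell in −dox and 2 in +dox cells. The brightest Rbbp4 probe set and the second Rbbp7 probe set are of the kind whose name carries an x, which the array maker uses where some probes can also bind other sequences, and Rbbp4 and Rbbp7 resemble each other, so their values are uncertain to that extent. The dimmest Rbbp4 probe set had the widest spread, with 9.73 on −dox DMSO replicate 1 against 7.51 and 7.70 on the other two, and its changes of −1.25 and −1.08 did not pass the test.

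Jarid2, which recruits PRC2 and tunes its activity, lies at chr13:44730774-44921643 and went the other way. Its arrays read 8.99, 8.14 and 8.33 (log2) in −dox DMSO and 8.55, 9.18 and 9.30 in −dox trametinib. The +dox arrays read 8.74, 7.99 and 7.93 with DMSO and 9.76, 9.31 and 9.68 with trametinib. The +dox trametinib arrays were above all others, the lowest of them at 9.31 beside the highest −dox trametinib array at 9.30. In −dox cells the groups overlapped, with replicate 1 the highest DMSO and the lowest trametinib array. Jarid2 rose 2.57-fold in +dox cells, by 1.36 ± 0.28 on the log2 scale (limma, adjusted p = 0.00407), and this rise passed under every alternative run, with adjusted p-values of 3.29e-04 to 0.0212. Of all genes 13.8% rose in this comparison.

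All 3 Jarid2 probe sets rose in +dox cells, by 1.36 to 1.47, with adjusted p-values over all probe sets of 0.00576, 3.25e-04 and 1.99e-04. In −dox cells their changes were 0.51 to 0.55, and the dimmest passed the test (adjusted p = 0.0372) while the brightest 2 did not (0.246 and 0.0808). In −dox cells the change of the brightest probe set was 0.52 (95% confidence interval −0.10 to 1.14), and without −dox DMSO replicate 1 it was 0.78 (adjusted p = 0.0702). With array weights, which gave that array the lowest weight of the 12 (0.195), it was 0.83 and passed (adjusted p = 0.00288), beside adjusted p-values up to 0.486 over all alternatives. The same weights gave −dox DMSO replicate 3 the highest, 6.98, beside 1.78 for the next array. The weighted −dox DMSO level thus rests largely on replicate 3. The difference between the states ranged from 0.84 to 0.95 over the 3 probe sets and passed for none of them. Of the groups, +dox DMSO was lowest for Jarid2 (8.22 ± 0.45, SD, n = 3), then −dox DMSO (8.49 ± 0.45), −dox trametinib (9.01 ± 0.40) and +dox trametinib (9.58 ± 0.24), and neighbours in this order overlapped except for the last pair.

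The genes with levels most like that of Jarid2 over the 12 arrays, out of the same 12004 candidates, were the nuclear receptor gene Nr2c1, the G protein subunit gene Gng13, the zinc finger genes Klf13 and Glis2 and the scaffold gene Card10, each with r = 0.95. Their trametinib changes were 0.24, 1.22, 0.24, 0.24 and 0.56 in −dox cells and 0.64, 2.46, 0.66, 0.57 and 1.17 in +dox cells. They were picked for this likeness, so the sizes are a description.

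Aebp2, the partner of Jarid2 in its assembly, was at 10.97 to 11.26 on all 12 arrays. Its change with trametinib was 0.04 (95% confidence interval −0.19 to 0.27) in −dox and 0.07 (−0.16 to 0.30) in +dox cells, both of which reach a rise or fall of at most 0.30. Its 5 probe sets were mixed, with changes from −0.66 to 0.48 in −dox and −0.19 to 0.30 in +dox cells, and none passed.

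Phf19, a Polycomb-like subunit, lies at chr2:34893752-34914353. Its log2 level in −dox cells was 6.24, 6.58 and 6.71 with DMSO and 5.13, 5.21 and 5.82 with trametinib. For +dox cells it was 6.25, 7.47 and 7.05 with DMSO and 5.65, 6.27 and 5.42 with trametinib. The −dox groups did not overlap, while in +dox cells trametinib replicate 2 at 6.27 was just above DMSO replicate 1 at 6.25. Phf19 fell by 1.12 ± 0.31 in −dox (limma, adjusted p = 0.0248), and its +dox level fell by 1.14 ± 0.31 (adjusted p = 0.0189), which is 2.18-fold and 2.21-fold lower. The −dox trametinib mean of Phf19, 5.39, was near the background level of 4.86. It was under the stricter level of 5.42, the 99th percentile of the receptor probe sets, so the size in −dox cells is uncertain. The second Phf19 probe set, dimmer but above the background level, had changes of 0.17 and 0.18 that did not pass. With the mean of both probe sets the changes were −0.48 in each state and the calls were lost (adjusted p = 0.104 and 0.0964, the highest over the alternatives other than leaving out an array). They were lost also without −dox DMSO replicate 2 or 3 or −dox trametinib replicate 1 or 2 (0.0649, 0.0815, 0.0793 and 0.078) and without +dox DMSO replicate 2 or 3 or +dox trametinib replicate 1 or 3 (0.0799, 0.0653, 0.0673 and 0.0755).

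Mtf2, the other Polycomb-like subunit, ran from 8.24 to 8.69 in −dox DMSO, 7.80 to 8.49 in −dox trametinib, 8.32 to 8.79 in +dox DMSO and 7.96 to 8.62 in +dox trametinib, and these ranges overlapped. Its changes with trametinib of −0.27 ± 0.22 and −0.28 ± 0.22 did not pass (limma, adjusted p = 0.424 and 0.422). The 4 of its 6 probe sets above the background level all had negative changes in both states. With the replicate number as a block the change in +dox cells passed (adjusted p = 0.0434), beside 0.0434 to 0.473 over the alternatives other than leaving out an array and 0.179 to 0.764 over the arrays left out in turn.

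**Figure D3:**
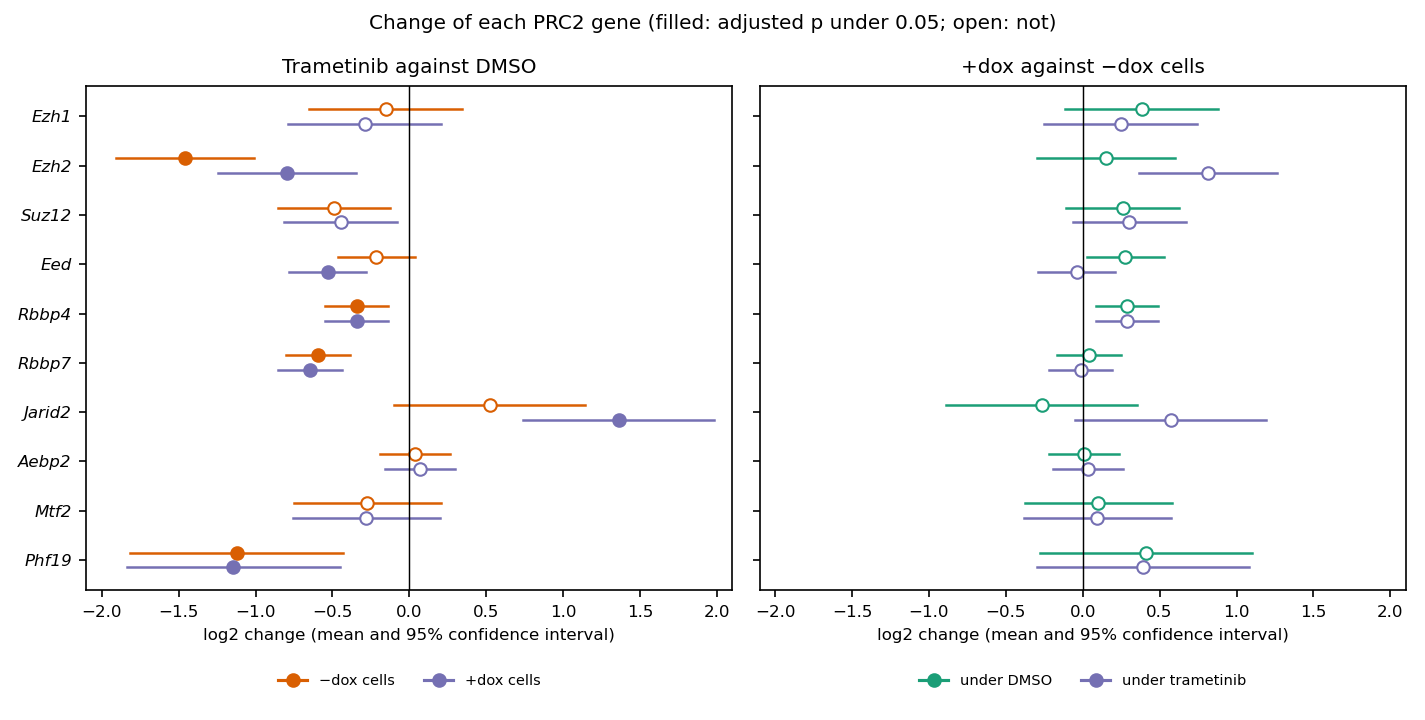
Log2 change (x axis) of each PRC2 gene (y axis) with trametinib in each cell state (left) and between +dox and −dox cells under each treatment (right), with 95% confidence intervals from limma over 3 against 3 arrays. Filled points passed an adjusted p of 0.05, which 4 genes did for trametinib in −dox cells, 6 in +dox cells and none for doxycycline.

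Over all 35 probe sets, the probe sets above the background level leaned the same way in both states. With trametinib 21 of 30 had negative changes in −dox cells and 22 of 30 in +dox cells. Tested one by one, 5 of these 30 fell and 1 rose in −dox cells, where 8.2% of all probe sets fell and 10.6% rose. In +dox cells 8 of the 30 fell and 3 rose, where 10.2% of all probe sets fell and 11.8% rose. The shares are over all 34945 probe sets, including those under the background level, so the filters differ. An Mtf2 probe set under that level, not counted here, also fell in +dox cells (limma, adjusted p = 0.0160). The 3 that rose in +dox cells were those of Jarid2. Probe sets of a gene share its RNA and are not replicates.

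**Figure D4:**
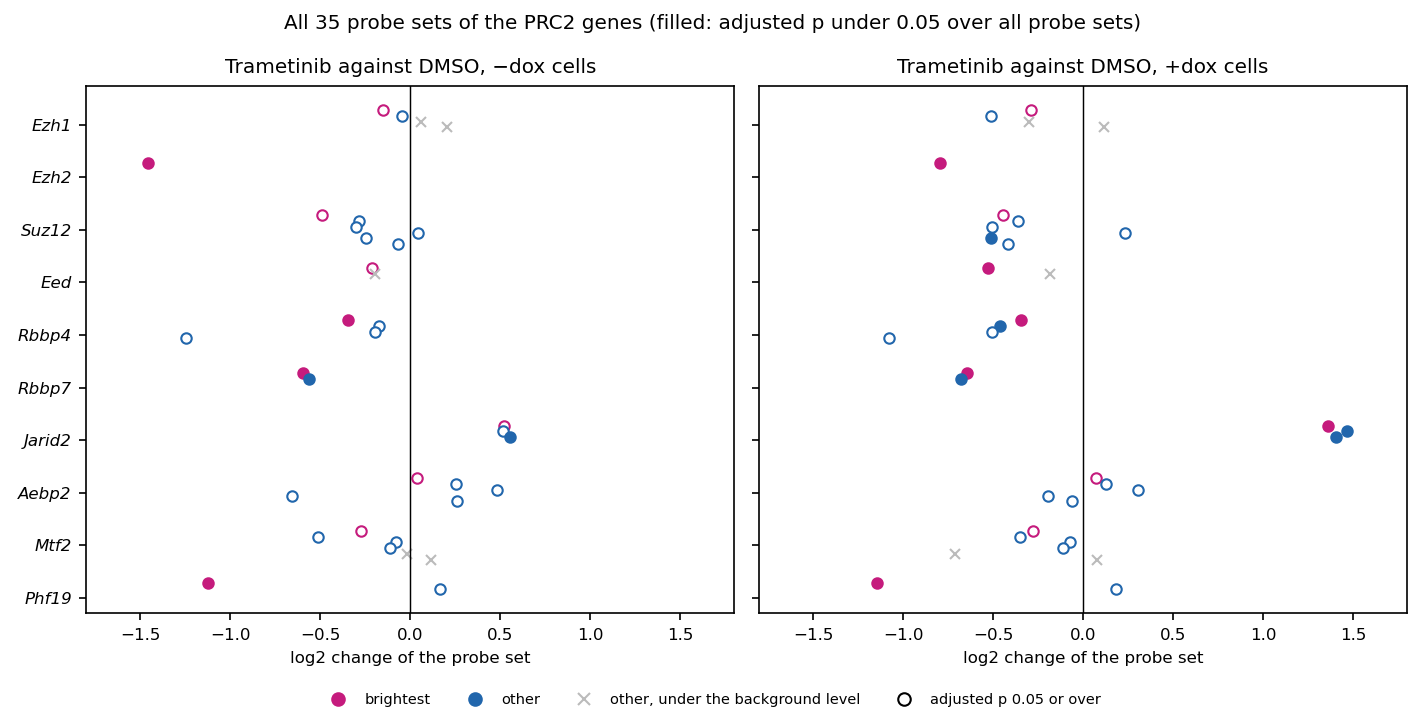
Log2 change with trametinib (x axis) of all 35 probe sets of the PRC2 genes (y axis, grouped by gene) in −dox (left) and +dox cells (right), with the brightest probe set of each gene in magenta, others in blue and those under the background level as crosses. The 3 Jarid2 and 2 Rbbp7 probe sets lie close together, whereas the 2 of Phf19 are apart, at −1.14 and 0.18 in +dox cells.

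The comparison of +dox with −dox cells covers doxycycline itself as well as the induced vector, which cannot be told apart on these arrays. Under DMSO none of the 10 passed the test, where 2.87% of all genes rose and 3.28% fell, and the median change was 0.21 beside 0.01 over all genes. At an unadjusted p under 0.05 it was 2 genes, Eed (0.28, 95% confidence interval 0.03 to 0.53, adjusted p = 0.195) and Rbbp4 (0.29, 0.08 to 0.49, adjusted p = 0.0992), and the arrays of these 2 genes were higher without overlap, where 11.3% of all genes were. Rbbp4 passed with each array centred on its median (0.38, adjusted p = 0.0277), beside 0.0277 to 0.248 over the alternatives other than leaving out an array. Under trametinib none passed either, where 1.95% of all genes rose and 1.42% fell, and the median was 0.27 beside −0.02. At an unadjusted p under 0.05 it was Ezh2 and Rbbp4 (0.29, adjusted p = 0.144), and Ezh2, Rbbp4 and Jarid2 had higher +dox arrays without overlap, where 9.45% of all genes had. The changes of Jarid2 were −0.27 (95% confidence interval −0.89 to 0.35) under DMSO and 0.57 (−0.05 to 1.19) under trametinib.

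Whether +dox and −dox cells answered trametinib differently was tested as the difference between the 2 responses, which use the same arrays as the comparisons above. None of the 10 genes passed, where the +dox response was the higher one for 0.258% of all genes and the lower one for 0.0715%. Ezh2 alone had an unadjusted p under 0.05, with a difference of 0.67 (95% confidence interval 0.03 to 1.30, limma, adjusted p = 0.405). It passed with array weights (0.94, adjusted p = 0.0372), beside adjusted p-values of 0.0372 to 0.662 over all alternatives. That fit gave −dox DMSO replicate 3 a weight of 6.98, beside 1.78 for the next array. For Jarid2 the interval was −0.04 to 1.72. For Rbbp4 the responses were equal at 2 decimals, with an interval of −0.29 to 0.29, and for Rbbp7 it was −0.35 to 0.24. The intervals of Phf19 (−0.996 to 0.96), Ezh1 (−0.84 to 0.57) and Mtf2 (−0.68 to 0.67) also span sizable differences in either direction.

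Among the genes around PRC2, those of the other Polycomb complex, PRC1, moved in both directions. PRC1 adds ubiquitin to histone H2A and has subunits that read the PRC2 mark. Of 23 measured PRC1 genes 4 rose and 5 fell with trametinib in −dox cells and 6 rose and 5 fell in +dox cells, with medians of 0.06 and 0.17. Over all genes 11.6% rose and 10.8% fell in −dox cells and 13.8% rose and 12.5% fell in +dox cells, and these shares apply to the lists that follow. The mark-reading subunit Cbx2 fell in both states (−0.73 and −0.64), as did the Polycomb gene Scmh1 (−1.02 and −1.39). Kdm2b, which takes PRC1 to CpG islands, also fell in both (−0.74 and −0.44), and so did Pcgf6 (−0.46 and −0.90). Bcor, a subunit of a variant PRC1, rose in both (0.53 and 1.17), as did Pcgf3 (0.54 and 0.33). Yaf2 rose in −dox cells (0.52) and was at 0.19 in +dox cells (adjusted p = 0.404). Phc2 and Cbx6 rose in +dox cells (0.68 and 0.60), with changes of 0.31 and 0.11 in −dox cells (adjusted p = 0.172 and 0.723). Doxycycline lowered Cbx6 under DMSO (−0.85), the only PRC1 gene that passed there. Under trametinib Phc1 alone passed, and was 0.74 higher in +dox than in −dox cells. Phc1 fell with trametinib in −dox cells, from 8.88 to 8.18 (limma, adjusted p = 0.00829). In +dox cells it was at 8.71 with DMSO and 8.93 with trametinib (adjusted p = 0.382).

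Of 5 further PRC2 accessory genes 3 were above the background level, and of these Lcor, whose locus also encodes a PRC2 cofactor, rose in +dox cells with trametinib (0.60, limma, adjusted p = 0.0142; 0.31 and 0.195 in −dox cells). Epop passed in all 4 comparisons but was under the background level in all groups, so no size is given for it. Of 7 genes for demethylases of the mark and for the deubiquitinase that opposes PRC1, Foxk1 fell in both states (−0.48 and −0.47), and Asxl1 rose in −dox cells (0.39), against 0.36 in +dox cells (adjusted p = 0.0516). The complexes that methylate K4 of histone H3, which work against Polycomb, had 2 of 13 genes higher and 2 lower in −dox cells and 3 higher and 2 lower in +dox cells. Setd1b (0.67 and 0.84) and Dpy30 (0.73 and 0.72) rose in both states and Wdr5 fell (−0.53 and −0.54) in both. Ncoa6 rose (0.33) and Ash2l fell (−0.53) in +dox cells, with changes of 0.24 and −0.28 in −dox cells (adjusted p = 0.0711 and 0.0562). Rbbp5 fell in −dox cells (−0.28), against −0.17 in +dox cells (adjusted p = 0.198).

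Rbbp4 and Rbbp7 also belong to chromatin assembly, deacetylase and cell cycle repressor complexes, and 20 other genes of these were measured. Of these, 8 fell and 1 rose with trametinib in −dox cells and 10 fell in +dox cells, with medians of −0.36 and −0.31, where 10.8% and 12.5% of all genes fell. Hat1, the acetyltransferase that works with Rbbp7 on new histones, fell in both states (−1.11 and −1.22). Lin9, of the cell cycle repressor complex, fell in both as well (−0.92 and −0.82). Chaf1b, a chromatin assembly factor, fell in −dox cells (−1.56), against −0.79 in +dox cells (adjusted p = 0.192). Sap30, a deacetylase subunit, fell in +dox cells (−0.72), against −0.65 in −dox cells (adjusted p = 0.0559). The methyl-CpG binding gene Mbd2 rose by 0.39 in −dox cells, against 0.19 in +dox cells (adjusted p = 0.294).

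Genes that PRC2 is known to silence in many tissues were followed through 2 lists. Of 33 measured Hox genes 13 were above the background level in some group. With trametinib none rose and 1 fell in each state. Doxycycline lowered Hoxb13 (−1.63 under DMSO and −1.44 under trametinib) and Hoxa10 (−1.04 and −0.79). The +dox means of Hoxb13 were under the background level, at 3.93, so its sizes are not measured on both sides. Trametinib lowered Hoxa5 (−0.49) in −dox cells, and Hoxc10, under the background level, in +dox cells. Of 39 other developmental genes on the list, 19 were above the background level in some group. With trametinib 1 rose and 5 fell in −dox cells, where 11.6% of all genes rose and 10.8% fell, and 3 rose and 2 fell in +dox cells, where 13.8% of all genes rose and 12.5% fell. These counts include genes under the background level in all groups, so no size is given for them. They are Wt1 (rose) and Foxa2 (fell) in −dox cells, and Lhx2 and Tbx2 (both rose) in +dox cells. The neural gene Neurog2 was at 4.09, under the background level, in +dox DMSO and at 6.83 in +dox trametinib (limma, adjusted p = 4.41e-04), and it was under the level in both −dox DMSO and −dox trametinib. Irx3 fell with trametinib in −dox cells (−1.36, against −0.21 in +dox cells with an adjusted p of 0.510) and with doxycycline under DMSO (−1.59). Gata2 fell in −dox cells (−0.79, against −0.40 in +dox cells with an adjusted p of 0.118) and Gata6 in +dox cells (−0.69, against −0.33 in −dox cells with an adjusted p of 0.302). Gata3 fell in both states, from 6.27 with DMSO to under the background level with trametinib in −dox cells and from 5.68 to 4.74, also under it, in +dox cells (adjusted p = 2.94e-04 and 0.0487). No measurement of histone methylation or of PRC2 protein is among the values used here.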

How the data were processed

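RNA of C790 cells was measured on 12 Affymetrix mouse arrays, 3 in each of 4 groups, with groups taken from the sample labels. The deposited values are log2 intensities per probe set, made by the authors with RMA in the Chipster software, and no further normalisation was applied. RMA shrinks small differences of dim probe sets and brings the arrays towards one distribution, so a shift common to all genes cannot be judged. The array medians still ran from 6.52 to 6.78 on the log2 scale. The table held 45101 probe sets. Control probe sets (64) and those annotated to no gene (9160) or to several genes (932) were left out. The remaining 34945 probe sets gave 18193 genes, each represented by its brightest probe set.

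A linear model with a mean per group was fitted to the 12 arrays by lmFit and eBayes of limma 3.58.1 (R 4.3.3), with Benjamini-Hochberg adjustment over all genes of a comparison and a threshold of 0.05. The fit was tested on simulated data. The 10 genes, the 14 other gene lists and the rule for named genes were chosen with earlier results of these data known. All 10 genes are reported. Of other lists, the rule allowed up to 3 genes with the largest changes past the test in each direction, not all of which are named here. For Ezh2 and Jarid2 it took the 5 genes with the highest Pearson r. Genes named outside this rule (the melanocyte genes, Ptprc, Cd4, Cd8a, Sox2, Foxa2 and Epop) were named after their values were seen. The deviations of same-numbered arrays from their group means had correlations of 0.17 to 0.34 for doxycycline under DMSO, 0.21 to 0.29 for doxycycline under trametinib and 0.16 to 0.45 for trametinib in +dox cells, all over 0.1, and 0.02 to 0.46 for trametinib in −dox cells. Arrays of different numbers had correlations of −0.43 to 0.31, a range that holds most of the same-number values. Values over 0.1 in the first 3 of these comparisons thus do not settle that the numbers are pairs. The fit reported has no replicate block, and the block is an alternative.

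Alternatives tried were a replicate block, a fit of only the arrays compared, averaging all probe sets of each gene, testing every probe set separately, filters at 3 background levels (the 90th, 95th and 99th percentiles, 4.59, 4.86 and 5.42), a further quantile normalisation, centring, array weights, a trended and robust eBayes, and leaving out each array. Promoter sequences are those of RefSeq (GRCm38.p6). The plots were made in Python 3.11.15 (matplotlib 3.10.9).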

Additional observations from a re-analysis of the deposited data

Results flagged for a closer look

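Among the genes outside PRC2, the leukocyte marker Cd3g differed in its trametinib response between the cell states. The +dox response exceeded the −dox response by 4.05 ± 0.28 on the log2 scale (SE; limma, adjusted p = 2.34e-04), where 0.258% of all genes had a higher +dox response. Its mean level went from 3.35 with DMSO to 3.48 with trametinib in −dox cells and from 4.83 to 9.01 in +dox cells, and 3 of these means are under the background level of 4.86, so the size is not measured on both sides.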

How the results depend on the processing

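Of 900 values of the 10 genes under the alternatives, 805 kept their direction and their side of the threshold, 19 lost and 23 gained a call, and 53 turned direction, none of them while called. Ezh2 and Rbbp7 in −dox cells, and Rbbp7, Eed and Jarid2 in +dox cells, kept their calls under all alternatives run. The number of the 10 genes called for trametinib was 4 in −dox cells (2 to 4 with an array left out, 7 with array weights) and 6 in +dox cells (4 to 6 with an array left out). The fall to 2 came without −dox DMSO replicate 2 or 3 or −dox trametinib replicate 2. For doxycycline under DMSO it was 0, but 1 with centring and 2 (Eed and Ezh1) with array weights, and 0 with any array left out. For doxycycline under trametinib it was 0, but 1, always Ezh2, with the replicate block, with each of the 3 background filters, with array weights and with the trended eBayes, and 0 to 1 with an array left out. For the difference between responses it was 0, and 1 with array weights. Array weights gave −dox DMSO replicate 3 a weight of 6.98, against 1.78 for the next highest. Weighted counts that use −dox DMSO thus rest largely on that array. Whether the replicate numbers are pairs was not settled. With the replicate block, the counts were 0, 1, 5, 8 and 0 in the order doxycycline under DMSO, doxycycline under trametinib, trametinib in −dox cells, trametinib in +dox cells, difference. In −dox cells the block added Suz12 (adjusted p = 0.00394), which passed also with the background filters, with array weights and without −dox trametinib replicate 1 (0.00394 to 0.295 over the alternatives other than leaving out an array). The cause of these shifts was not tested.

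Values that turned direction were small and not called. With the mean of the probe sets Aebp2 was −0.077 and −0.10 for doxycycline under DMSO and under trametinib and −0.027 for the difference, Suz12 was −0.11 for the difference and Ezh1 0.016 for trametinib in −dox cells. With centring Aebp2 was −0.15 for the difference and −0.053 for doxycycline under trametinib, and Suz12 −0.14 for the difference. With quantile normalisation Aebp2 was −0.031 for doxycycline under DMSO and −0.030 for trametinib in −dox cells. With array weights, for doxycycline under DMSO, Aebp2 was −0.031, Ezh2 −0.057 and Rbbp7 −0.060, Eed was 0.008 for doxycycline under trametinib and Rbbp7 0.050 for the difference. With an array left out, the difference ran from −0.032 to 0.09 for Aebp2, −0.40 to 0.09 for Ezh1, −0.20 to 0.17 for Mtf2, −0.36 to 0.25 for Phf19, −0.11 to 0.028 for Rbbp7 and −0.083 to 0.19 for Suz12. Doxycycline under DMSO ran from −0.048 to 0.062 for Aebp2, −0.035 to 0.24 for Mtf2 and −0.042 to 0.093 for Rbbp7. Doxycycline under trametinib ran from −0.025 to 0.097 for Aebp2, −0.093 to 0.033 for Eed, −0.097 to 0.27 for Mtf2 and −0.04 to 0.01 for Rbbp7. Trametinib in −dox cells ran from −0.013 to 0.10 for Aebp2 and −0.38 to 0.11 for Ezh1.

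Over all genes, centring shifted every gene by 0.13 for trametinib in −dox cells and by −0.18 for the difference. It turned 2113 higher and 1959 lower genes into 4193 and 1544 in −dox cells, 522 and 596 into 1148 and 464 for doxycycline under DMSO, 355 and 259 into 294 and 425 for doxycycline under trametinib, and 47 and 13 into 49 and 168 for the difference. In total 1118, 614, 4072 and 60 genes were called in these comparisons, in the order doxycycline under DMSO, doxycycline under trametinib, trametinib in −dox cells and the difference, against 4086, 1427, 7131 and 1066 with array weights. The difference had 141 with the replicate block and 13 to 200 with an array left out, doxycycline under DMSO had 550 with only the arrays compared and 465 to 1297 with an array left out, and doxycycline under trametinib 295 to 902. Signal over background limited the 5 probe sets under the background level.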
